A study of Gallus gallus with 12 samples.

Results

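Chicken males carry 2 copies of the Z chromosome (ZZ) and females carry a single Z with a W (ZW), and 15 Z-linked genes whose mean level over all stages was similar in both sexes are described here. They were taken from 405 genes on the Z chromosome that averaged 5 TPM or more and start outside the stretch from 24 to 32 Mb. TPM is a length-corrected expression unit, in which the values of all genes sum to the same total in each library. A gene was included when its mean TPM over the 6 ZZ libraries divided by its mean TPM over the 6 ZW libraries, the ZZ over ZW ratio, lay from 0.75 to 1.3. The genes were chosen by this measured ratio, so every sex difference of these 15 genes is given as a description and carries no test.

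The libraries were made from primordial germ cells (PGCs), the precursors of sperm and eggs, of white Leghorn embryos. Circulating PGCs came from the blood at day 2.5 of incubation (E2.5) and gonadal PGCs from the gonads at E4.5 and E6.5, sorted by FACS with an antibody against SSEA-1, a carbohydrate on the surface of early chicken PGCs. ZZ and ZW embryos gave 2 libraries each at every stage, and each library was a pool of 6 to 14 embryos. The labels give no treatment or genetic change, and the 6 groups differ in sex, stage and, between E2.5 and the later stages, source tissue.

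Birds do not silence or double a sex chromosome as a whole. Most Z-linked genes are therefore more abundant in ZZ cells, and a Z-linked gene at equal level in both sexes departs from the usual pattern of the chromosome. The 15 genes have no common function. AGXT2, GRHPR, CDO1 and AUH encode enzymes of amino acid and glyoxylate breakdown, and HSD17B4, ELOVL7 and HACD4 encode enzymes that shorten or lengthen fatty acids. SNX2, GOLM1 and LMBRD2 encode membrane proteins, or proteins that sort membranes. NLN is a peptidase, TRIM14 a tripartite motif protein, XRCC4 a DNA repair factor and RFESD a protein with a Rieske iron-sulfur domain, while ENSGALG00000004518 has no symbol in the table.

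Between 7185031 and 13749166 reads per library could be recovered from the table, and 2 libraries stood apart in ways that touch these genes. Hemoglobin transcripts took 16.5% of the TPM in E2.5 ZW replicate 1, 0.257% to 4.45% in the other E2.5 libraries and at most 0.0631% later. In E6.5 ZW replicate 2, 11 markers of kidney and liver epithelium summed to 3788 TPM, against 524 TPM in E6.5 ZW replicate 1 and 70.7 to 280 TPM in the other 10 libraries. Of the PGC markers, DAZL was at 1621 to 2536 TPM and DDX4 at 135 to 680 TPM, while PRDM14 (0.71 to 13.0 TPM) and PRDM1 (1.252 to 8.23 TPM) were low. Gonadal somatic markers summed to 11.97 to 50.6 TPM, and endothelial and macrophage markers to 7.80 to 48.8 TPM. In sorted pools, fewer cells of a type and less RNA per cell cannot be told apart.

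The 15 genes were 3.70% of the 405 Z-linked genes (95% Wilson interval 2.26% to 6.02%). Of the remainder, 381 genes had a ratio above 1.3 and 9 a ratio below 0.75. The interval treats genes as independent, but all were measured in the same libraries, so it leaves out variation between libraries. Ratios from each stage by itself put 12, 39 and 45 genes in the range, in stage order. The median ratio over the 405 genes was 1.93, with quartiles of 1.71 and 2.24. On the numbered chromosomes, 76.6% of 8259 genes at 5 TPM or more lay from 0.75 to 1.3, and their median ratio was 1.06. At the lower edge, RFESD (0.771), CDO1 (0.797) and ELOVL7 (0.825) were the last genes included, and FBP1 (0.302), DAB2 (0.274) and PSAT1 (0.206) the first left out. LMBRD2 (1.28), XRCC4 (1.28) and GOLM1 (1.295) were the last included at the upper edge, where ENSGALG00000049285 (1.31), ISOC1 (1.33) and ENSGALG00000028340 (1.34) followed without a gap. No gap in ratio separated the upper edge from the next genes, whereas the lower edge had a wide one.

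**Figure D1:**
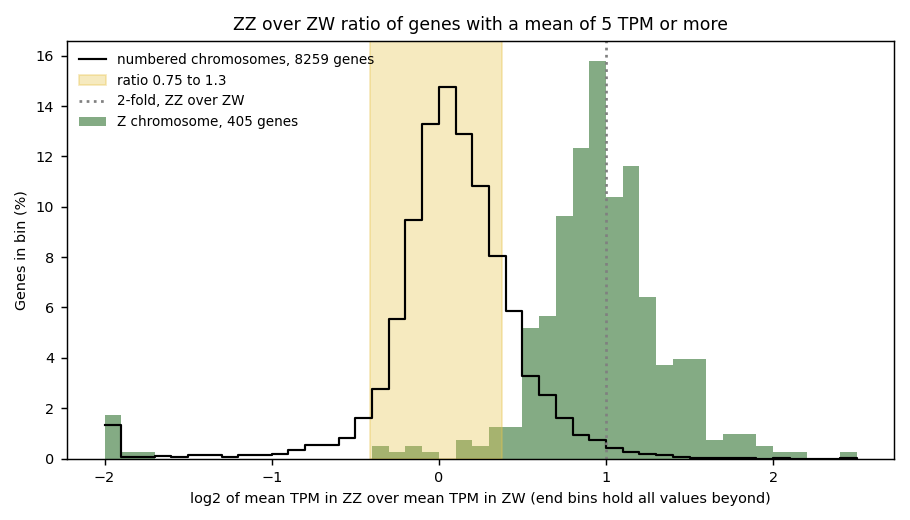
Share of genes (%, y axis) in each bin of the log2 ratio of mean TPM in ZZ over mean TPM in ZW (x axis), for 405 Z-linked genes (bars) and 8259 genes on numbered chromosomes (line) with a mean of 5 TPM or more. The shaded band is the ratio from 0.75 to 1.3, which holds 15 of the Z-linked genes and 76.6% of the others.

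The similar means did not come from similar levels at each stage. The median ZZ over ZW ratio of the 15 genes stood at 1.77 in E2.5 cells (range 0.787 to 3.62), 1.75 in E4.5 cells (0.629 to 5.74) and 0.582 in E6.5 cells (0.248 to 1.28). At E2.5, 12 genes lay above 1.3 and 3 within the range from 0.75 to 1.3. At E4.5, 11 lay above it, 2 within and 2 below, and at E6.5 none lay above it, 6 within and 9 below. None of the 15 genes, and none of the 405 Z-linked genes, stayed from 0.75 to 1.3 at all 3 stages. The name "near equal" therefore holds for the mean over stages alone.

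For 10 of the 15 genes the ZZ mean was higher at E2.5 and E4.5 and the ZW mean was higher at E6.5, an order found in 23 of the 405 Z-linked genes and in 6 of the 381 above the range. In stage order the median ratio of the 405 genes was 2.32, 1.83 and 1.90, and that of the numbered chromosomes 1.27, 0.963 and 1.04. The E2.5 ratios thus stand on a shift that the numbered chromosomes share. After median-of-ratios scaling, which sets the typical gene to the same level in each library, the log2 median of the numbered chromosomes at E2.5 was -0.03, against 0.35 in TPM. The medians of the 15 genes were then 1.37, 1.66 and 0.515, with 8, 9 and 0 genes above 1.3.

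**Figure D2:**
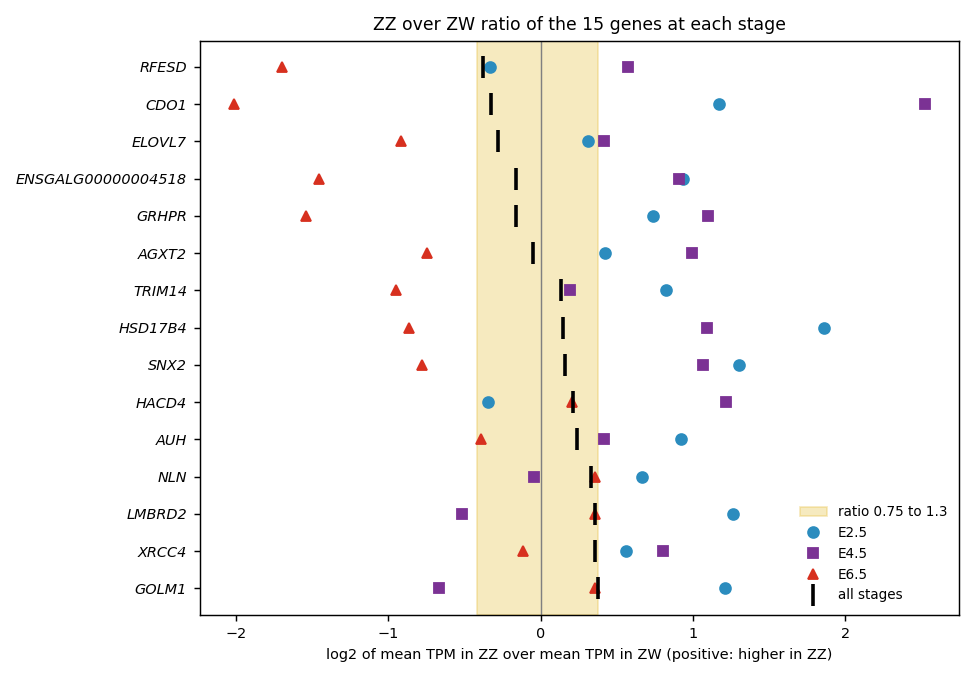
Log2 ratio of mean TPM in ZZ over mean TPM in ZW (x axis) for each of the 15 genes (y axis) at each of the 3 stages, with the ratio over all stages as a vertical tick and the range 0.75 to 1.3 shaded. All ticks lie in the band, while the E6.5 points of 9 genes lie left of it and the E2.5 points of 12 genes right of it.

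Read by library, both ZZ libraries exceeded both ZW libraries at E2.5 in 10 of the 15 genes, an order seen in 34.1% of all 14154 genes tested and in 88.1% of the 405 Z-linked genes. At E4.5 the same order held in 7 of 15 (9.81% of all genes tested, 54.1% of the Z-linked genes). At E6.5 it held in NLN alone (27.2% of all genes tested, 81.7% of the Z-linked genes). The opposite order, both ZW libraries above both ZZ libraries, occurred in none of the 15 genes at E2.5 or E4.5 (7.16% and 8.15% of all genes tested). At E6.5 it occurred in 7 of 15, namely RFESD, CDO1, ELOVL7, ENSGALG00000004518, GRHPR, AGXT2 and TRIM14 (17.1% of all genes tested, 3.95% of the Z-linked genes). The ratio that chose the genes was computed from the same libraries, so nothing is read from these counts.

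**Figure D3:**
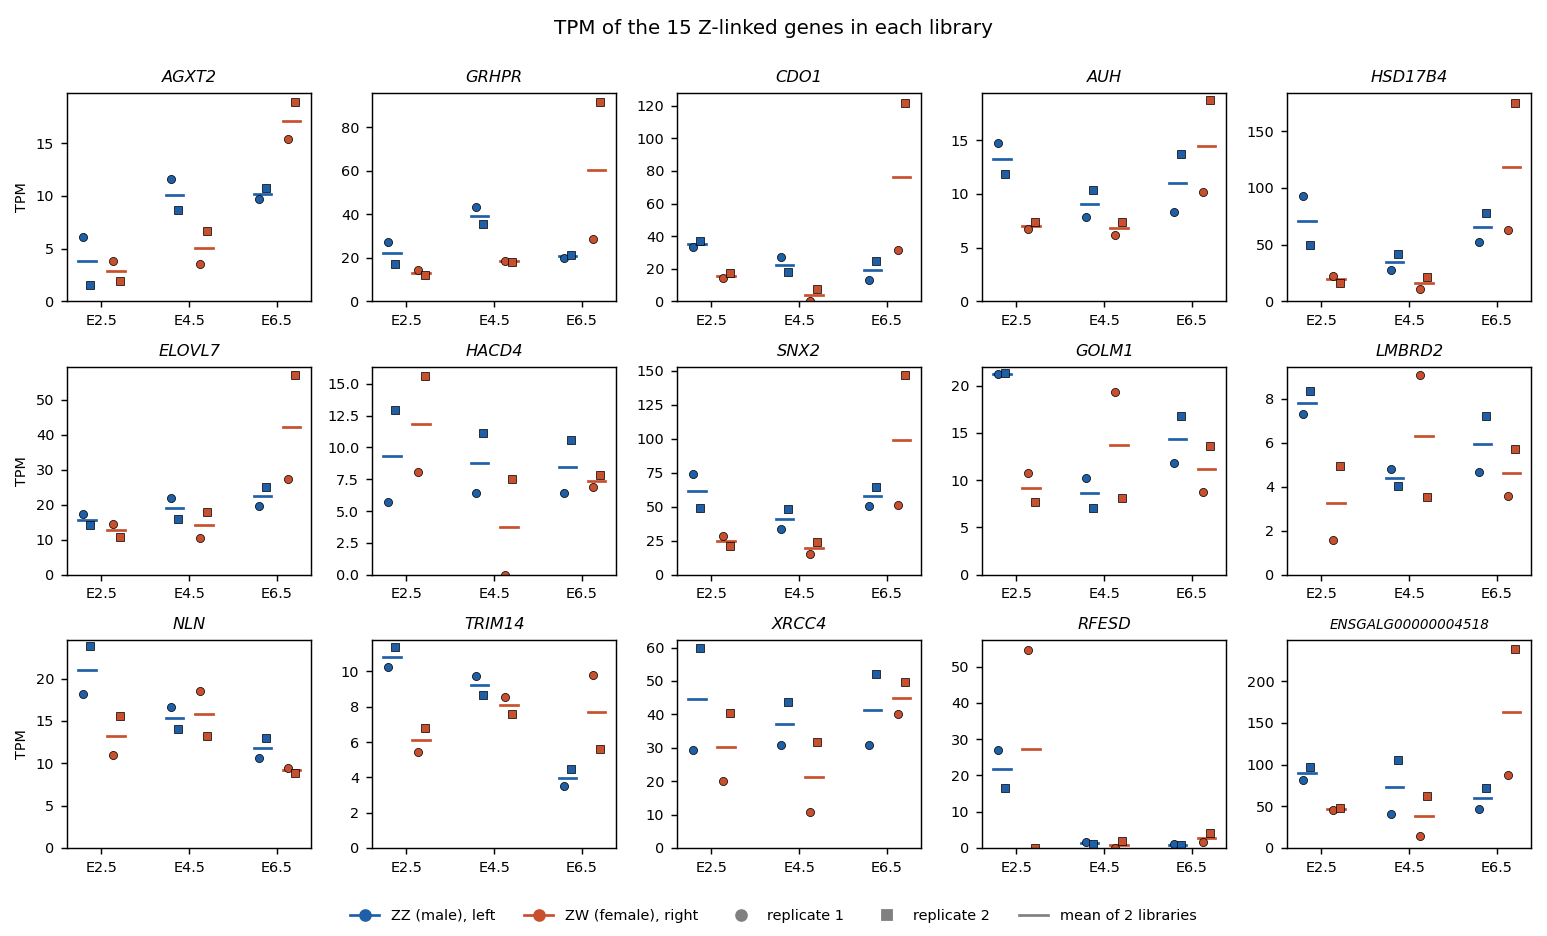
TPM (y axis, from 0) of each of the 15 genes in every library, by stage (x axis), with ZZ left of ZW, circles for replicate 1, squares for replicate 2 and a bar for the mean of the 2 libraries. E6.5 ZW replicate 2 is the highest library in 8 panels, among them CDO1 at 122 TPM and HSD17B4 at 175 TPM.

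Among the enzymes of amino acid and glyoxylate breakdown, AGXT2 (Z: 10583389-10597099, GRCg6a) encodes a mitochondrial aminotransferase that passes an amino group to glyoxylate. It had 6.15 and 1.60 TPM in ZZ against 3.87 and 1.91 TPM in ZW at E2.5, 11.6 and 8.68 TPM in ZZ against 3.50 and 6.69 TPM in ZW at E4.5, and 9.73 and 10.7 TPM in ZZ against 15.4 and 18.9 TPM in ZW at E6.5. The sexes overlapped at E2.5, ZZ was higher at E4.5 and ZW was higher at E6.5. AGXT2 shares 430 bases with ENSGALG00000052991 on the opposite strand (mean 21.9 TPM), and the library kit does not mark strand.

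GRHPR (Z: 81867579-81872830) encodes the reductase that clears glyoxylate and hydroxypyruvate. Its levels were 27.2 and 17.2 TPM in ZZ against 14.4 and 12.2 TPM in ZW at E2.5, 43.2 and 35.6 TPM in ZZ against 18.5 and 18.3 TPM in ZW at E4.5, and 20.03 and 21.4 TPM in ZZ against 28.8 and 91.7 TPM in ZW at E6.5. ZZ and ZW did not overlap at any stage, and the order at E6.5 was the opposite of the order before.

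CDO1 (Z: 73146956-73156876) encodes cysteine dioxygenase, the first enzyme of cysteine breakdown to taurine and sulfate. It was at 33.4 and 36.9 TPM in ZZ against 14.1 and 17.2 TPM in ZW at E2.5, 27.0 and 17.9 TPM in ZZ against 0.483 and 7.34 TPM in ZW at E4.5, and 13.3 and 24.7 TPM in ZZ against 31.5 and 122 TPM in ZW at E6.5. CDO1 had the widest spread of stage ratios of the 15 genes, from 5.74 at E4.5 to 0.248 at E6.5. The lowest E4.5 value rests on 3 reads.

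AUH (Z: 44218672-44328999), a mitochondrial hydratase of leucine breakdown that also binds AU-rich RNA, varied less. It had 14.7 and 11.8 TPM in ZZ against 6.71 and 7.34 TPM in ZW at E2.5, 7.82 and 10.4 TPM in ZZ against 6.17 and 7.43 TPM in ZW at E4.5, and 8.27 and 13.7 TPM in ZZ against 10.1 and 18.7 TPM in ZW at E6.5. ZZ was above ZW at E2.5 and E4.5, and the sexes overlapped at E6.5.

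Of the fatty acid enzymes, HSD17B4 (Z: 71751384-71806908) encodes the peroxisomal D-bifunctional protein, which carries out the middle steps of peroxisomal beta-oxidation. It reached 92.6 and 49.5 TPM in ZZ against 22.8 and 16.4 TPM in ZW at E2.5, 27.9 and 42.2 TPM in ZZ against 11.4 and 21.5 TPM in ZW at E4.5, and 52.5 and 78.2 TPM in ZZ against 62.5 and 175 TPM in ZW at E6.5. Its ratio of 3.62 at E2.5 was the highest of the 15 genes, and the sexes overlapped at E6.5.

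ELOVL7 (Z: 18876427-18908652) encodes an elongase of long-chain fatty acids. Its values were 17.4 and 14.1 TPM in ZZ against 14.6 and 10.8 TPM in ZW at E2.5, 21.9 and 16.0 TPM in ZZ against 10.4 and 18.003 TPM in ZW at E4.5, and 19.7 and 25.1 TPM in ZZ against 27.5 and 57.2 TPM in ZW at E6.5. The sexes overlapped at E2.5 and E4.5 and separated at E6.5.

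HACD4 (Z: 34263630-34278183), a dehydratase of the same elongation cycle, did not separate the sexes at any stage. It was at 5.69 and 12.9 TPM in ZZ against 8.05 and 15.6 TPM in ZW at E2.5, 6.40 and 11.2 TPM in ZZ against 0 and 7.56 TPM in ZW at E4.5, and 6.43 and 10.6 TPM in ZZ against 6.90 and 7.81 TPM in ZW at E6.5. The library at 0 had no read of the gene, which allows a level of up to 0.533 TPM (3 reads, counting error only).

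SNX2 (Z: 81461079-81494229), a sorting nexin that works with the retromer in sorting cargo out of endosomes, had 74.2 and 48.7 TPM in ZZ against 28.4 and 21.4 TPM in ZW at E2.5, 33.6 and 48.3 TPM in ZZ against 14.9 and 24.2 TPM in ZW at E4.5, and 50.7 and 64.4 TPM in ZZ against 51.3 and 146 TPM in ZW at E6.5. ZZ was above ZW at the first 2 stages, and a single ZW library stood far above the other 3 at E6.5.

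GOLM1 (Z: 40778614-40804385) encodes a membrane protein of the Golgi apparatus. Its values were 21.2 and 21.3 TPM in ZZ against 10.8 and 7.64 TPM in ZW at E2.5, 10.3 and 7.07 TPM in ZZ against 19.4 and 8.16 TPM in ZW at E4.5, and 11.8 and 16.8 TPM in ZZ against 8.75 and 13.6 TPM in ZW at E6.5. The E2.5 ratio of 2.31 was offset at E4.5 by ZW replicate 1.

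LMBRD2 (Z: 10937257-10979460), a protein with many membrane spans, had the same order of ZZ and ZW means as GOLM1 at each stage. It was at 7.29 and 8.35 TPM in ZZ against 1.57 and 4.96 TPM in ZW at E2.5, 4.80 and 4.04 TPM in ZZ against 9.10 and 3.54 TPM in ZW at E4.5, and 4.67 and 7.23 TPM in ZZ against 3.58 and 5.72 TPM in ZW at E6.5. LMBRD2 overlaps SKP2 on the opposite strand by 494 bases, and SKP2 averaged 116 TPM against 5.40 TPM for LMBRD2.

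NLN (Z: 20653928-20692517) encodes neurolysin, a metallopeptidase that cleaves short peptides such as neurotensin. It had 18.2 and 23.8 TPM in ZZ against 10.9 and 15.5 TPM in ZW at E2.5, 16.7 and 14.1 TPM in ZZ against 18.6 and 13.2 TPM in ZW at E4.5, and 10.6 and 13.0 TPM in ZZ against 9.49 and 8.90 TPM in ZW at E6.5. It alone of the 15 genes had both ZZ libraries above both ZW libraries at E6.5, with a ratio of 1.28.

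TRIM14 (Z: 52089154-52096585), known in mammals from antiviral signalling, was at 10.2 and 11.4 TPM in ZZ against 5.43 and 6.81 TPM in ZW at E2.5, 9.76 and 8.65 TPM in ZZ against 8.55 and 7.59 TPM in ZW at E4.5, and 3.49 and 4.47 TPM in ZZ against 9.79 and 5.58 TPM in ZW at E6.5. The order of the sexes was opposite at E2.5 and E6.5. Here ZW replicate 1, not replicate 2, was the higher ZW library at E6.5.

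XRCC4 (Z: 62992672-63173370) encodes the partner of DNA ligase IV in the joining of broken DNA ends. Its levels were 29.4 and 59.9 TPM in ZZ against 20.02 and 40.5 TPM in ZW at E2.5, 30.9 and 43.6 TPM in ZZ against 10.9 and 31.7 TPM in ZW at E4.5, and 30.9 and 52.0 TPM in ZZ against 40.1 and 49.5 TPM in ZW at E6.5. The sexes overlapped at every stage, and replicate 2 was above replicate 1 in each of the 6 groups.

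RFESD (Z: 57610727-57613816) had 26.9 and 16.5 TPM in ZZ against 54.7 and 0 TPM in ZW at E2.5, 1.77 and 1.01 TPM in ZZ against 0 and 1.87 TPM in ZW at E4.5, and 1.07 and 0.703 TPM in ZZ against 1.71 and 4.04 TPM in ZW at E6.5. Its mean therefore rested on 3 of the 4 E2.5 libraries, and the ZW replicates there held 567 reads and 0 reads. Hemoglobin took 4.45% and 1.59% of the TPM in ZZ and 16.5% and 0.257% in ZW at E2.5. RFESD ranked these libraries in the same order, and a part of blood cell transcripts in its level was not tested. At E6.5 both ZW libraries were above both ZZ libraries. The counts of 0 allow levels of up to 0.382 TPM at E2.5 and 0.479 TPM at E4.5. The ratio over all stages was 0.771.

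The unnamed gene ENSGALG00000004518 (Z: 22436116-22452194, protein coding) was the most abundant of the 15, with a mean of 78.4 TPM. It had 81.1 and 97.5 TPM in ZZ against 45.6 and 47.8 TPM in ZW at E2.5, 41.1 and 105 TPM in ZZ against 14.9 and 62.8 TPM in ZW at E4.5, and 47.0 and 72.0 TPM in ZZ against 87.6 and 238 TPM in ZW at E6.5. ZZ was above ZW at E2.5 and ZW was above ZZ at E6.5. The sexes overlapped at E4.5, where ZZ was above ZW within each replicate number.

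E6.5 ZW replicate 2 was the highest of the 12 libraries in 8 of the 15 genes, against 4.44% of the 405 Z-linked genes and 8.54% of the genes on numbered chromosomes. It was over 2-fold above E6.5 ZW replicate 1 in 7 of the 15, namely CDO1 (3.86-fold), GRHPR (3.18-fold), SNX2 (2.85-fold), HSD17B4 (2.80-fold), ENSGALG00000004518 (2.72-fold), RFESD (2.36-fold) and ELOVL7 (2.08-fold), against 6.67% of the 405 Z-linked genes and 4.49% of those on numbered chromosomes. The sum over the 15 genes was 963 TPM in that library, against 395 TPM in E6.5 ZW replicate 1 and 147 to 466 TPM in the other 10. At the low end, E4.5 ZW replicate 1 was the lowest library in 8 of the 15 genes, against 29.4% of the 405 and 15.6% on numbered chromosomes. A high E6.5 ZW replicate 2 lowered the ratio that chose the genes, so nothing is read from these counts.

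With E6.5 ZW replicate 2 left out, 5 of the 15 genes stayed from 0.75 to 1.3, namely AGXT2 (1.29), NLN (1.19), ELOVL7 (1.17), HACD4 (1.16) and TRIM14 (1.05). A further 9 moved above it, with HSD17B4 at 2.12, SNX2 at 1.90, CDO1 at 1.81, GRHPR at 1.49, AUH at 1.47, ENSGALG00000004518 and XRCC4 at 1.43 each, GOLM1 at 1.35 and LMBRD2 at 1.33. RFESD moved below it, to 0.69. With all 4 E6.5 libraries left out, 5 genes stayed in the range, 10 lay above it, and the median ratio was 1.59. Over all 12 libraries left out in turn, 13 of the 15 genes left the range at least in 1 case, and AGXT2 and TRIM14 stayed in it throughout. The ratio of RFESD moved farthest, to 5.25 without E2.5 ZW replicate 1.

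**Figure D4:**
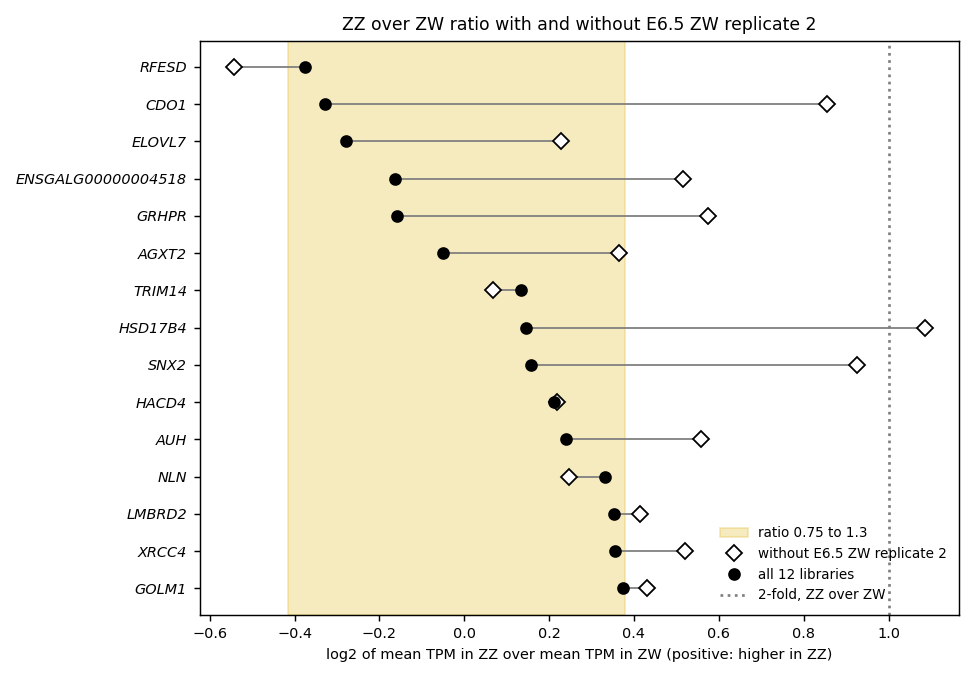
Log2 ratio of mean TPM in ZZ over mean TPM in ZW (x axis) for each of the 15 genes (y axis) without E6.5 ZW replicate 2 (open diamonds) and with all 12 libraries (filled circles). Leaving that library out moves 9 genes to the right of the shaded range 0.75 to 1.3 and RFESD to the left of it.

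The same library held the most transcripts of the kidney and liver epithelium list, of which 11 of 12 markers were in the table. At E6.5 the list summed to 524 and 3788 TPM in ZW, against 117 and 112 TPM in ZZ. APOA1, the main protein of high-density lipoprotein, was at 398 and 3022 TPM in ZW against 12.6 and 7.90 TPM in ZZ, and TTR, a carrier of thyroid hormone, at 43.8 and 660 TPM in ZW against 1.06 and 1.05 TPM in ZZ. HNF4A, a transcription factor of liver and kidney, was at 2.56 and 12.9 TPM in ZW and at 0 in both ZZ libraries. SLC34A2, a phosphate transporter, went the other way, at 70.8 and 46.9 TPM in ZW against 99.1 and 99.4 TPM in ZZ, and ALB stayed at or below 2.63 TPM in every library. The PGC list was lowest in this library at 2796 TPM, against 3046 to 5774 TPM in the other 11. The part of these transcripts in the E6.5 levels of the 15 genes was not tested.

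**Figure D5:**
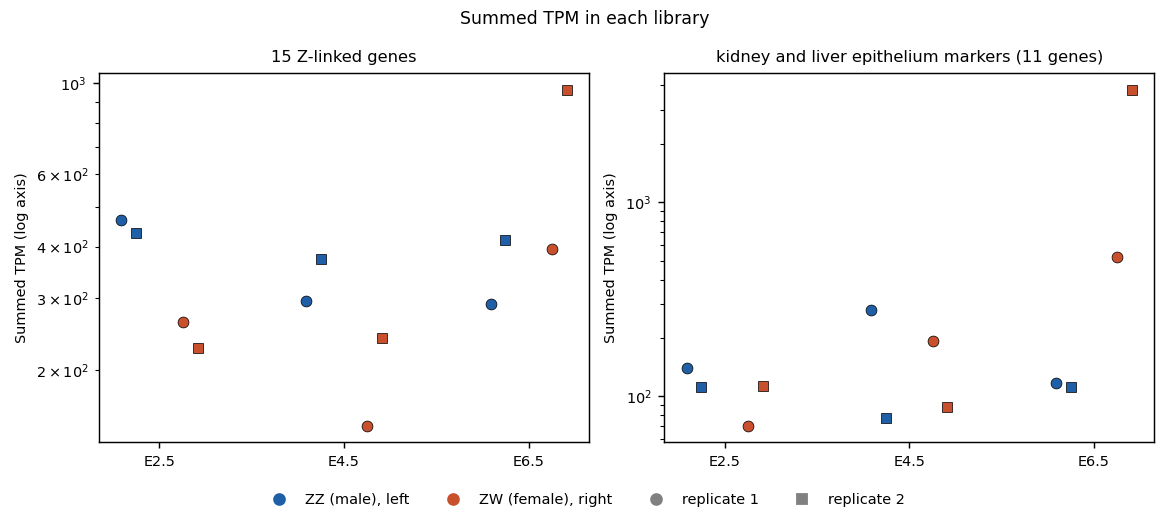
Summed TPM (y axis, log scale) of the 15 genes (left) and of 11 markers of kidney and liver epithelium (right) in each library, by stage (x axis), with ZZ left of ZW, circles for replicate 1 and squares for replicate 2. E6.5 ZW replicate 2 is highest in both panels, at 963 TPM and 3788 TPM.

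The 3 genes just below the range were also highest in E6.5 ZW replicate 2. At E6.5, PSAT1, an enzyme of serine synthesis, was at 38.6 and 310 TPM in ZW against 9.92 and 11.6 TPM in ZZ. FBP1, an enzyme of gluconeogenesis, was at 106 and 881 TPM in ZW against 42.4 and 61.6 TPM in ZZ, and DAB2, an endocytic adaptor, at 10.3 and 70.8 TPM in ZW against 0.565 and 0.214 TPM in ZZ. All of these would enter the range without E6.5 ZW replicate 2. A high ZW library lowers the ratio that placed them below the range, so nothing is read from this.

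Differences between stages, averaged over the sexes, are another contrast than the ratio but come from the same libraries, whose values admitted the genes. They were tested with limma on log2(TPM + 1) over all 14154 genes, with Benjamini-Hochberg adjustment. At E6.5 against E2.5, AGXT2 rose, and it was the single gene called of the 15 (0.918% of all genes tested were called higher and 1.06% lower). AGXT2 averaged 13.7 ± 4.25 TPM at E6.5 and 3.38 ± 2.10 TPM at E2.5 (SD, n = 4 each), a log2 change of 1.82 (SE 0.42, limma adjusted p = 0.0457). All 4 E6.5 libraries lay above all 4 E2.5 libraries, an order shared by ELOVL7 among the 15 and by 5.62% of all genes tested. None of the 15 had all 4 E6.5 libraries below all 4 E2.5 libraries (8.37% of all genes tested). The AGXT2 call was lost when any of the 8 E2.5 or E6.5 libraries was left out (adjusted p from 0.0583 to 0.205). The log2 change was 1.38 in ZZ libraries alone (limma adjusted p = 0.712) and 2.26 in ZW libraries alone (adjusted p = 0.135). With the E6.5 libraries left out, the ZZ over ZW ratio of AGXT2 was 1.75, above the range. Its E6.5 values thus helped to admit it, so the call is not separate from the choice of the gene and is a description.

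ELOVL7 (log2 change 1.03, limma adjusted p = 0.143) and HSD17B4 (1.15, adjusted p = 0.144) did not pass in the same comparison. GRHPR (0.91) and SNX2 (0.85) were past an unadjusted p of 0.05 there, as were AGXT2, ELOVL7 and HSD17B4 (7.52% of all genes tested were higher at that level and 8.82% lower). RFESD averaged 24.5 TPM at E2.5, 1.16 TPM at E4.5 and 1.88 TPM at E6.5, so it reached the mean of 5 TPM through E2.5 alone and its later fall was fixed by that minimum. The median log2 change of the 15 genes was 0.30, against -0.11 over all genes tested and -0.02 over the 405 Z-linked genes. It was -0.28 in ZZ libraries alone, with 2 of 15 genes higher at E6.5, and 0.89 in ZW libraries alone, with 12 of 15 higher. All genes tested had medians of -0.27 in ZZ and 0.01 in ZW. Without E6.5 ZW replicate 2 the median of the 15 was 0.10. High E6.5 ZW values helped to admit genes, so nothing is read from these counts and medians.

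At E6.5 against E4.5, limma called none of the 15 and none of the 14154 genes, with 1638 at an unadjusted p under 0.05 and none called by limma-voom on the recovered reads. HSD17B4 had the smallest adjusted p of the 15. It averaged 92.1 ± 56.4 TPM at E6.5 and 25.7 ± 12.9 TPM at E4.5 (SD, n = 4 each), a log2 difference of 1.77 (SE 0.38, adjusted p = 0.120). SNX2 averaged 78.2 ± 45.9 TPM at E6.5 and 30.2 ± 14.3 TPM at E4.5, a log2 difference of 1.31 (SE 0.35, adjusted p = 0.251). In both genes all 4 E6.5 libraries were above all 4 E4.5 libraries (3.64% of all genes tested), and in NLN all 4 were below (1.77%). CDO1 differed by 1.95 (SE 0.54, adjusted p = 0.259) with overlapping libraries. In all, 13 of the 15 genes had a positive log2 difference, with a median of 0.67 against -0.02 over all genes tested, and 5 of them had an unadjusted p under 0.05 (8.05% of all genes tested were higher at that level and 3.53% lower). The median was 0.02 in ZZ libraries alone, 1.44 in ZW libraries alone and 0.59 without E6.5 ZW replicate 2. With the E6.5 libraries left out of the ratio, 10 of the 15 genes lay above 1.3. High E6.5 ZW values thus helped to admit genes, and nothing is read from these counts and medians. The same holds for the medians of 1.01 without E4.5 ZW replicate 2 and 0.78 without E6.5 ZW replicate 1. All genes tested had medians of -0.10 and -0.06 there.

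At E4.5 against E2.5, where the source tissue also differs, none of the 15 genes was called (0.0353% of all genes tested were called higher and 0.148% lower). The limma test called 26 genes in all and limma-voom none. With an unadjusted p under 0.05 there were CDO1 (-1.44) and AGXT2 (1.001), besides RFESD, and 3.36% of all genes tested were higher at that level and 7.78% lower. The median log2 difference of the 15 genes was -0.39, against -0.09 over all genes tested and -0.19 over the 405 Z-linked genes. It was -0.28 after median-of-ratios scaling, -0.43 in ZZ libraries alone and -0.04 in ZW libraries alone. All genes tested had medians of -0.01, -0.29 and 0.07 in these settings. RFESD, whose fall was fixed by the minimum mean level, is counted here. E2.5 or E4.5 values also helped to admit RFESD, GOLM1 and LMBRD2, so nothing is read from these counts and medians. The stage comparisons share libraries, so their values are set side by side and not compared.

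To follow the sex difference through development, an interaction was fitted, ZZ minus ZW at the later stage less ZZ minus ZW at the earlier stage, on the log2(TPM + 1) scale. Because the ratio weighs the high libraries most, this is not separate from the choice of the genes and is given as a description. With the E6.5 libraries left out of the ratio, 10 of the 15 genes lay above 1.3. Low E6.5 ratios thus helped to admit genes, and nothing is read from the interaction counts and medians of the 15. The median interaction of the 15 genes was -0.21 at E4.5 against E2.5 (0.17 once libraries were set to the same typical gene level), -1.45 at E6.5 against E4.5 and -1.17 at E6.5 against E2.5. Over all genes tested the medians were -0.33, 0.09 and -0.26. Without E6.5 ZW replicate 2 the medians of the 15 at E6.5 were -1.01 against E4.5 and -0.76 against E2.5. After median-of-ratios scaling they were -1.46 and -0.94. A negative value, a lower ZZ level relative to ZW at the later stage, was found in 12 of the 15 genes at E6.5 against E4.5 and in 14 at E6.5 against E2.5, and in 196 and 278 of the 405 Z-linked genes. It was farthest from 0 in CDO1 in both, at -4.43 (SE 1.08) against E4.5 and -2.84 (SE 1.08) against E2.5. No gene of all 14154 was called in any of the 3 interactions by limma or by limma-voom, with 393, 503 and 731 at an unadjusted p under 0.05.

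The 15 genes were scattered along the Z chromosome, with starts from 10.6 to 81.9 Mb. Among the nearest Z-linked genes of 5 TPM or more on either side, 28 were not themselves among the 15. All 28 lay above 1.3, with a median ratio of 1.93 and a range from 1.40 to 3.59. By the rule a neighbour within the range would be one of the 15, and 381 of the 405 Z-linked genes lay above 1.3. Nothing is read from this count. SNX2, for example, lies 2.47 kb from SNX24 (1.88), and NLN lies 0.210 kb from SGTB (1.99). AGXT2 and LMBRD2 are the only neighbours that were both included, 340 kb apart. The median gene length of the 15 was 1912 bases and their median level 14.4 TPM, against 2391 bases and 29.2 TPM in the 381 genes above the range. The median SD between replicates on the log2 scale was 0.54 in the 15 genes and 0.46 in the 381.

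Set against incomplete lists of genes by function, the 15 genes were few in each. They were 3.70% of the 405 Z-linked genes. Of 24 metabolic genes at 5 TPM or more, AUH and HSD17B4 were included and 18 lay above the range. The metabolic list does not hold the enzymes AGXT2, GRHPR, CDO1, ELOVL7 and HACD4, which are among the 15. NLN, a peptidase, is likewise absent from the list of ubiquitin and proteolysis, and LMBRD2 from that of membrane traffic. The counts depend on what the lists hold, so nothing is read from them. Of 19 genes of membrane traffic, GOLM1 and SNX2 were included and 17 lay above. XRCC4 was included of 29 genes of cell cycle, replication and repair, and 28 lay above. None was included of 18 genes of RNA processing, 18 of signalling, 16 of the mitochondrial list (which does not hold AGXT2 or AUH), 13 of ubiquitin and proteolysis, 8 of the ribosome, 8 of chromatin, 6 with a partner on the W chromosome and 4 of germ cells, and all of these but DAB2 lay above the range. Named genes were matched by exact symbol, so CHD1Z (2.29), SMAD2Z (2.55), SPIN1Z (2.30) and ATP5A1Z (2.02) are missing from the W-partner count. CHD1Z and SPIN1Z are also missing from the chromatin and germ cell counts, and SMAD2Z from signalling. In the metabolic list, 35 genes of the whole table were tested by stage. At E6.5 against E2.5 limma called ALDH1A1 and FBP2 higher and PLPP1 lower. Of all genes tested, 0.918% were called higher and 1.06% lower. At E6.5, ALDH1A1 was at 28.6 and 212 TPM in ZW against 17.3 and 0.737 TPM in ZZ. FBP2 was at 11.2 and 68.5 TPM in ZW against 0.436 and 1.72 TPM in ZZ, so both were highest in E6.5 ZW replicate 2.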

How the data were processed

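The authors trimmed reads with Trimmomatic 0.39 and Trim Galore 0.6.6 with cutadapt 3.1, mapped them to GRCg6a with STAR 2.7.3a and counted uniquely mapped reads with featureCounts 2.0.1. They deposited TPM and gene length for 24356 genes in 12 libraries, and how counts became TPM is not given in the sources used here. TPM times length gave whole reads for 100% of low values checked (tolerance 0.02). Unique mapping lowers genes with close copies. limma 3.58.1 in R 4.3.3 (lmFit, eBayes with trend) fitted 6 group means to log2(TPM + 1) for 14154 genes reaching 1 TPM in 2 or more libraries, which include all 15 described genes. Calls had an adjusted p under 0.05. The fit was run on simulated data for E6.5 against E2.5 alone, with the same spread for every gene and no outlying library or replicate effect. That run does not cover the other comparisons or libraries such as E6.5 ZW replicate 2. Genes and lists were chosen with earlier results of these data known. All 15 genes were named, with the 3 genes outside each edge of the ratio range. Alternatives changed the pseudocount (0.1), filter, scaling, window, averaging and libraries. Replicates were separate pools. A promoter or protein sequence was not analysed here.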

Additional observations from a re-analysis of the deposited data

Results flagged for a closer look

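Of 45 sets of 4 libraries (the 15 genes at each stage), 3 held a library whose gap to its nearest neighbour was too large a share of the range for 4 values, and all were E6.5 ZW replicate 2. Chance gives such a gap in about 1 of 20 sets whose 4 values come from a single group. These sets mix ZZ and ZW libraries, so the number of gaps cannot be weighed against that rate. The genes were chosen on the same values, and a high E6.5 ZW replicate 2 helped to admit them, so these gaps are a description. CDO1 was at 122 TPM in that library, against 13.3 to 31.5 TPM in the other 3 at E6.5. SNX2 was at 146 TPM there, against 50.7 to 64.4 TPM, and GRHPR at 91.7 TPM, against 20.03 to 28.8 TPM. The same library had the highest sum of kidney and liver epithelium markers (3788 TPM), whose part in these levels was not tested.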

How the results depend on the processing

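The number of Z-linked genes from 0.75 to 1.3, 15 in the main setting, was 24 after median-of-ratios scaling (12 of the 15 among them), 28 with a minimum mean of 1 TPM, 9 with a narrower range (from 0.8 and to its inverse), 39 at E4.5 alone and 45 at E6.5 alone. With a stage left out, chosen after seeing the data, it was 36 without E2.5 and 9 without E4.5. Leaving out each library in turn gave 12 to 18. Of the 15 genes, 9 stayed in the narrower range, 9 with geometric means, 6 with medians (chosen after seeing the data), 3 at E2.5 alone, 2 at E4.5 alone, 6 at E6.5 alone, 9 without E2.5, 6 without E4.5 and 5 without E6.5. Leaving out each library left 5 to 14 of them, with 9 without E2.5 ZW replicate 2 or E4.5 ZW replicate 1 and 5 without E6.5 ZW replicate 2. Of 285 single-gene ratios under alternatives, 44 moved by more than the standard error of the ratio, computed from the variance between replicates. A gene with a wide error, such as RFESD (0.70 on a ratio of 0.77), could leave the range and still count as unmoved.

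For E6.5 against E2.5, the 1 call became 0 with a pseudocount of 0.1 TPM, no filter, hemoglobin genes left out, ZZ libraries alone and ZW libraries alone, and leaving out each library gave 0 to 1. Without E2.5 ZW replicate 2 the gene called was RFESD, whose fall after E2.5 was fixed by the minimum mean level. Over 21 alternatives the AGXT2 log2 change ran from 1.38 to 2.26 and its adjusted p from 0.0280 to 0.712. Calls over all genes were 280 in the main setting and 8 to 538 under alternatives, against 26 and 0 to 116 for E4.5 against E2.5, and 0 and 0 to 397 for E6.5 against E4.5. The interactions, with 0 calls, reached at most 14 (E4.5 against E2.5), 116 (E6.5 against E4.5) and 86 (E6.5 against E2.5). For E4.5 against E2.5, leaving out libraries gave 0 to 1 call of the 15 (RFESD, without E2.5 ZW replicate 2). For E6.5 against E4.5 it gave 0 to 2 (HSD17B4 and CDO1 without E4.5 ZW replicate 2, HSD17B4 without E6.5 ZW replicate 1). In both of these settings of E6.5 against E4.5, calls over all genes also rose above the 0 of the main setting, so the rise was not particular to the 15 genes. The cause was not tested. With the replicate number as a block, AGXT2 was called at E6.5 against E2.5 (adjusted p = 0.0412) and 0 genes of the 15 in the other comparisons. For each gene tested, the deviation of replicate 1 from its group mean was taken on the log2(TPM + 1) scale. Between ZZ and ZW these deviations, not the levels themselves, correlated at 0.21, 0.61 and -0.11 at the 3 stages. The numbers were not taken as pairs, as the correlation was low at E2.5 and E6.5. At E4.5 same-numbered libraries went together, so sexes that overlapped there can still keep an order within each number. ZZ was above ZW within each number in ENSGALG00000004518, XRCC4 and HACD4, and ZW was above ZZ in GOLM1. RFESD, ELOVL7, LMBRD2 and NLN kept no such order at E4.5. With 2 pools a group, reads of 0 to 3 limit RFESD, HACD4 and CDO1.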
